A study of Mus musculus with 8 samples.

Results

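The mitochondrial ribosome proteins were followed in liver RNA of Per2 mutant and wild-type mice. They were taken as every gene of the array table whose single annotated symbol begins with Mrpl or Mrps followed by a number, which gave 78 genes out of 28042 rows tested. Of these, 49 carried the large subunit letter and 29 the small subunit letter. The table covered all 78 protein-coding genes with such a symbol in the RefSeq gene table used here, through 129 probes. RefSeq also lists 6 pseudogenes of the family, and signal from these copies may not be separable from their parent genes on the array.

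The mitochondrial ribosome translates the few messenger RNAs that mitochondrial DNA encodes, all of them for membrane subunits of the respiratory chain and of ATP synthase. Its 2 ribosomal RNAs also come from mitochondrial DNA, while every one of its proteins is made from a nuclear gene, translated in the cytosol and imported. Some of the proteins descend from those of bacterial ribosomes, and others exist only in mitochondria. In liver the products of this ribosome serve the oxidation of fatty acids and other fuels, on which a starved animal depends.

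The 8 arrays held liver RNA of 4 mice with the mPer2Brdm1 mutation and of 4 wild-type mice, all of mixed 129sv and C57Bl/6 background, with 1 array per mouse. All mice came from 1 cohort and were killed after 8 h of starvation, and the study's stated interest was the control of liver glycogen by Per2, a repressor gene of the circadian clock. Brdm1 is known as an in-frame deletion carried in every tissue, so the liver was not altered alone. Age, sex and time of day were not given in the sources used here. Each deposited value was a log2 value set relative to the median of its probe over the 8 arrays, so that it tells how a mouse stood against the other mice and not how abundant a transcript was. The base of the logarithm was inferred.

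The shared start of 2 members and the upstream stretches of 4 others are shown first, as examples. All 4 stretches hold the motif that is marked in them. The genes that fell among the 4 are of the small subunit and the others of the large subunit. Neither subunits nor outcomes can therefore be compared from them. Mrpl46 and Mrps11, which encode a protein of each subunit, are transcribed away from each other from start sites 42 bases apart on chromosome 7. The bases between them, read on the plus strand and taken from RefSeq on GRCm38.p6, are chr7:78783090-78783130:
Mrpl46 to Mrps11: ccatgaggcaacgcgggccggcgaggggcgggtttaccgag
The other stretches are the 80 bases before an annotated start, 5′ to 3′ on the strand of the gene, with the core motif of ETS factors (CCGGAAG, or CTTCCGG on the opposite strand) in capitals. The family of ETS factors includes GABP, a known regulator of nuclear genes for mitochondrial proteins. Mrps27 at chr13:99344706-99344785 on the plus strand and Mrps16 at chr14:20393491-20393570 on the minus strand were lower in the mutants. RefSeq gives a further start for Mrps16, and the 80 bases before that start, chr14:20393635-20393714, hold 0 copies of the core and are not shown:
Mrps27: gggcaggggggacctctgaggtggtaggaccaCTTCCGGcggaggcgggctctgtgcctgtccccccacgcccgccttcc
Mrps16: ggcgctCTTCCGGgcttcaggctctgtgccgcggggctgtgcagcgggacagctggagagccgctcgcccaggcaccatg
Mrpl43 at chr19:45006443-45006522 on the minus strand and Mrpl53 at chr6:83109028-83109107 on the plus strand did not pass the test:
Mrpl43: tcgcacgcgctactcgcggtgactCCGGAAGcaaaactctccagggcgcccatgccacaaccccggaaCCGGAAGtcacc
Mrpl53: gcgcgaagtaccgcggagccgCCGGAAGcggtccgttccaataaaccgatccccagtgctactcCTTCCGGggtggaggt

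Across the whole table the mutant arrays lay at slightly higher deposited values, and each array was shifted to a common 75th percentile. The tested rows had a median difference of 0.08 after that shift, and 4333 of 28042 rows (15.5%) passed the test. Of the rows that passed, 42.2% were higher in the mutants, and 61.4% with the values as deposited. The 2 probes of Per2 itself moved in opposite directions, one lower by -1.70 and one higher by 2.54, and each separated the groups in every mouse. Control spots of the array lay lower on wild type replicates 2 and 3, with medians of -0.66 and -0.43, than on the other 6 arrays, where they ran from -0.04 to 0.13. Results are therefore also given without these 2 arrays. Whether the replicates differ as animals or also as preparations was not stated.

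Part of the mitochondrial ribosome genes fell in the mutants. Of the 78 genes, 21 fell and 0 rose, which is 26.9% lower where 8.93% of all rows were called lower and 6.52% higher. Among named genes alone these shares were 10.5% and 7.13%. The median standard error was 0.110 for the family, 0.188 for named genes and 0.229 for all rows. A difference of a given size was therefore called more readily in the family. The falls were small, from 0.37 to 0.69 on the log2 scale. They ranged over proteins of the L1 stalk, the central protuberance, the tunnel exit and the decoding subunit. The median difference of all 78 genes was -0.26, beside 0.08 for all rows and 0.0088 for all named genes. Differences lay below 0 for 66 genes and above 0 for 12, while 44.3% of all rows lay below 0. In whole liver, fewer cells of a type and less RNA per cell cannot be told apart.

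The test was limma's moderated test with Benjamini-Hochberg adjustment over all 28042 rows, on 4 against 4 mice. At an unadjusted p under 0.05, 36 genes were lower and 0 higher, while 8494 of 28042 rows lay under it in either direction. The adjusted p of the 21 genes that fell ran from 0.00432 to 0.0458, so that several lay close to the threshold. The count of lower genes was 6 when the values were used as deposited, where all rows had a median of 0.20, the family had a median of -0.14 and 5.48% of rows were called lower. The count was 8 without mutant replicate 2, 9 without mutant replicate 3, 12 without mutant replicate 4, 13 without wild type replicate 1, 8 without wild type replicate 3 and 7 without wild type replicate 4. It was 4 without wild type replicates 2 and 3 together, where 3.16% of rows were called lower, the family had a median of -0.30 and 69 genes lay below 0.

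**Figure D1:**
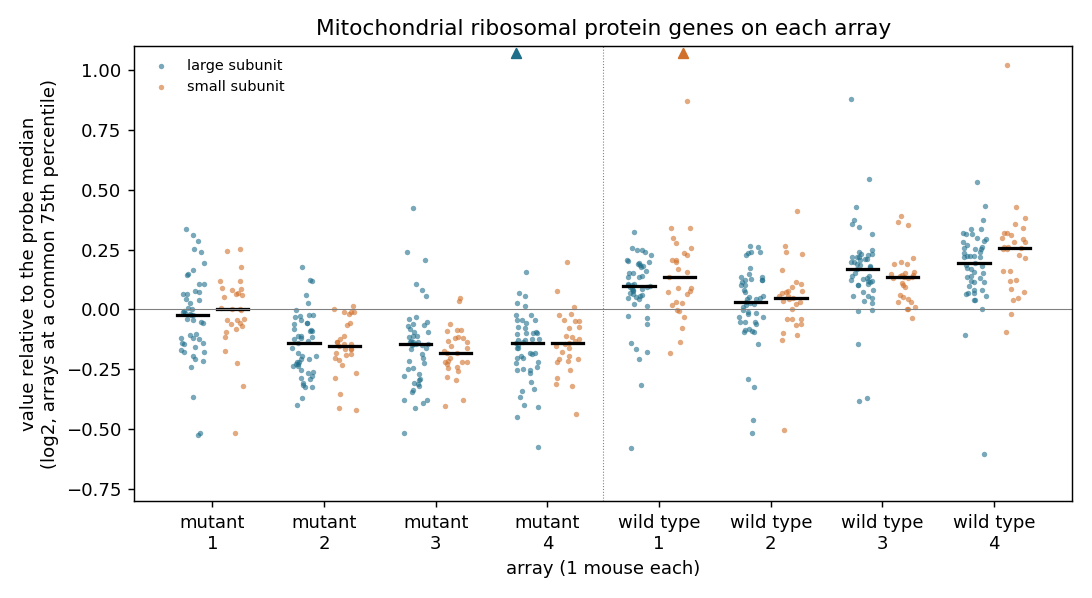
Log2 value relative to the median of each probe (vertical axis) of the 78 genes on each of the 8 arrays (horizontal axis), with the arrays at a common 75th percentile. Large subunit genes are in blue and small subunit genes in orange, with a bar at the median of each subunit on each array. Triangles stand for 2 values beyond the axis, Mrpl33 at 1.45 in mutant replicate 4 and Mrps15 at 2.31 in wild type replicate 1. At this scaling the medians of all 78 genes lie at or below -0.01 in the mutants and at or above 0.04 in wild type.

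The shift could be read array by array. The median of the 78 genes was -0.01, -0.15, -0.16 and -0.14 in mutant replicates 1 to 4. It was 0.10, 0.04, 0.14 and 0.22 in wild type replicates 1 to 4. These medians are given after the arrays were set to a common 75th percentile. The groups then did not overlap, and mutant replicate 1 and wild type replicate 2 stood nearest to each other. That step moved mutant replicates 1 to 4 by -0.07, -0.01, -0.09 and -0.07. It moved wild type replicates 1 to 4 by 0.06, 0.07, 0.05 and 0.05. With the values as deposited mutant replicate 1 lay above wild type replicates 1 and 2, so that the groups overlapped. The separations of single genes are also given after that step. On mutant replicate 1, 43 genes lay below 0, against 71, 70 and 69 on the other mutant arrays. In wild type 15, 29, 6 and 4 genes lay below 0 on replicates 1 to 4. Single genes varied little within a group: the median SD within groups was 0.118 for the family, 0.272 for all named genes and 0.343 for all rows. For 35 genes (44.9%) every mutant lay below every wild-type mouse, and for 0 genes every mutant lay above. Over all rows these shares were 14.6% and 10%, 24.6% in either direction, and among named genes 17.2% and 11.2%.

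Genes of both subunits fell in the main fit. In the large subunit 14 of 49 genes fell, with a median difference of -0.22, and in the small subunit 7 of 29 fell, with a median of -0.26. The small subunit count was 2 or 3 whichever single array was left out and 2 with the values as deposited. That of the large subunit ran from 5 (without wild type replicate 3 or 4) to 14 (without mutant replicate 1) and was 4 as deposited. Over all rows 1542 to 1993 of 28042 were lower when 1 array was left out, and 5.48% as deposited. A count of 2 of 29 small subunit genes is near these shares. The median of the large subunit genes was -0.02, -0.14, -0.14 and -0.14 in the mutants and 0.10, 0.03, 0.17 and 0.19 in wild type. That of the small subunit genes was 0.00, -0.15, -0.18 and -0.14 in the mutants and 0.14, 0.05, 0.13 and 0.25 in wild type. Within an array the large median minus the small median was 0.0066 ± 0.0246 (SD) over the 4 mutants and -0.02 ± 0.0414 (SD) over the 4 wild-type mice, so that neither group departed from 0 by more than the spread between mice. A test of the subunits against each other was not run.

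The letter in a symbol does not always give the seat of the protein. The proteins of Mrps30 and Mrps18a sit in the large subunit, and that of Mrps36 is a component of the 2-oxoglutarate dehydrogenase complex and not of the ribosome. None of these 3 genes passed, with differences of -0.30 ± 0.09 (adjusted p = 0.0676) for Mrps30, -0.26 ± 0.10 (adjusted p = 0.126) for Mrps18a and -0.23 ± 0.14 (adjusted p = 0.265) for Mrps36. Every mutant lay below every wild-type mouse for Mrps30 and Mrps18a, whereas the groups overlapped for Mrps36. Counted by seat, 14 of 51 large subunit genes and 7 of 26 small subunit genes fell, with medians of -0.23 and -0.27. The difference between the medians within an array was then -0.0049 ± 0.0185 (SD) over the 4 mutants and -0.02 ± 0.0346 (SD) over the 4 wild-type mice.

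Descent from bacterial ribosomal proteins was also compared, as a description. Among the proteins with a bacterial counterpart 12 of 46 genes fell, with a median of -0.25, and among those found only in mitochondria 9 of 31 fell, with a median of -0.26. In the large subunit the medians were -0.18 over 30 genes with a counterpart and -0.30 over 21 without. In the small subunit they were -0.29 over 16 genes and -0.24 over 10 genes, which is the opposite order. The count of 12 was 4 and the count of 9 was 2 with the values as deposited, and they were 3 and 1 without wild type replicates 2 and 3. Of all rows 8.93% were called lower in the main fit, 5.48% as deposited and 3.16% without these 2 arrays. Counts of 2 and 1 of 31 are near the latter 2 shares. When any 1 array was left out the counts of 12 and 9 ran from 4 (without wild type replicate 4) to 9 (without mutant replicate 1) and from 3 (without mutant replicate 2 or wild type replicate 3 or 4) to 7 (without mutant replicate 1 or wild type replicate 2).

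**Figure D2:**
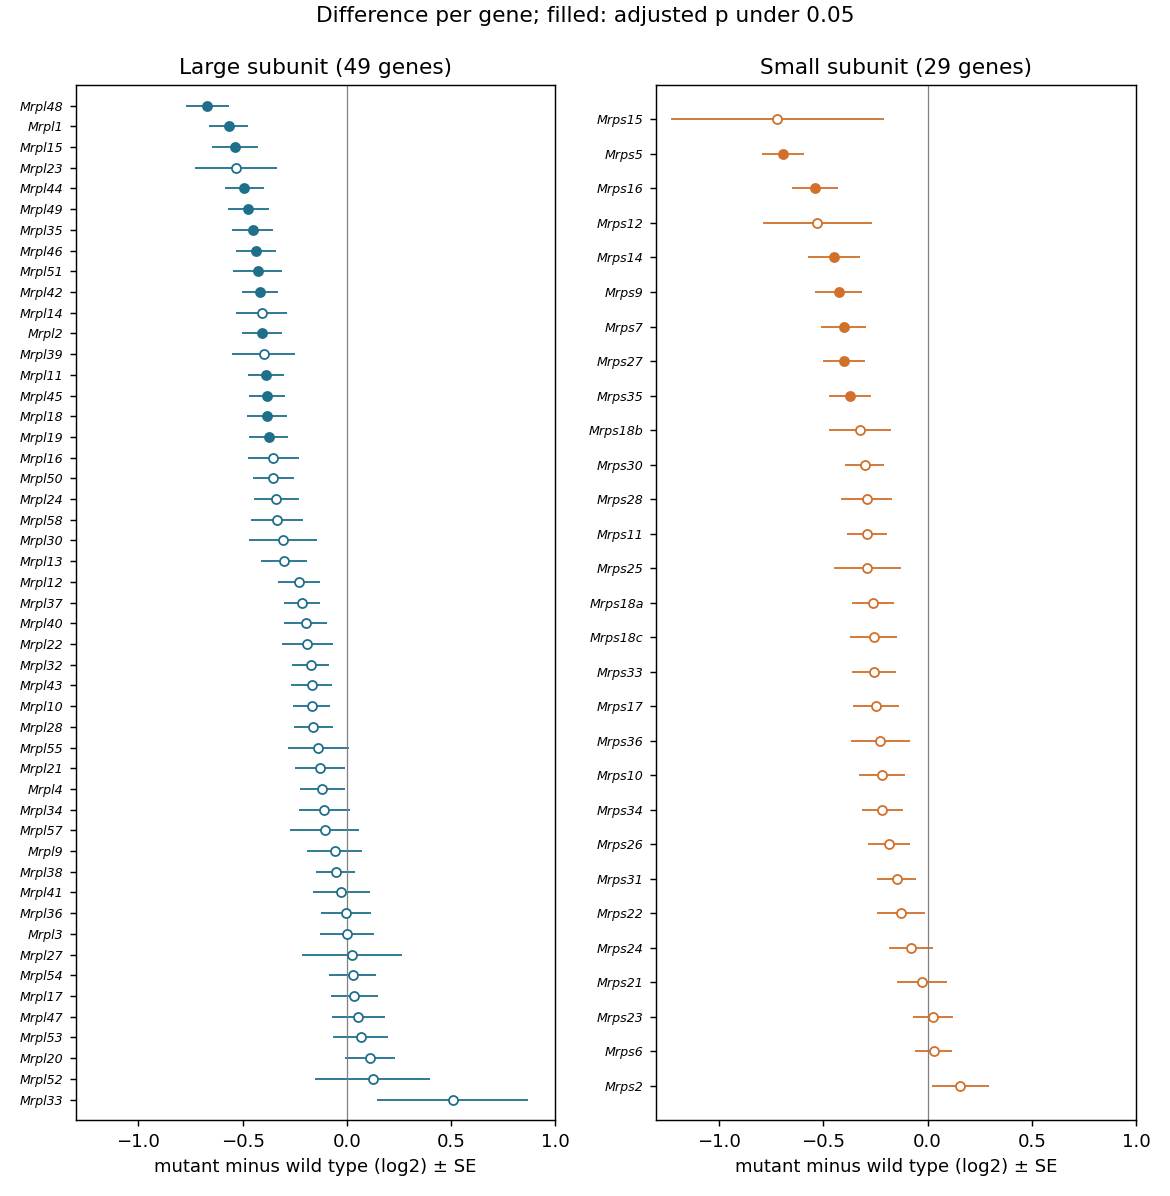
Mutant minus wild type difference on the log2 scale (horizontal axis) for each of the 78 genes, in order within the large and the small subunit, with lines for the standard error of the limma fit and filled points for the 21 genes that fell. Mrps5 and Mrpl48 lie farthest from 0 among the filled points, and Mrps15 and Mrpl33 have the longest lines.

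The clearest fall was that of Mrps5, whose protein belongs to the small subunit near the entry of the messenger RNA. Its values were -0.52, -0.41, -0.22 and -0.44 in the mutants and 0.28, 0.27, 0.35 and 0.30 in wild type. The wild-type mice lay within 0.1 of each other, well apart from all mutants. The difference was -0.69 ± 0.10 (adjusted p = 0.00432), or 1.62-fold lower. All 4 probes of Mrps5 passed, with differences from -0.485 to -0.997.

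Mrps16, a protein of the small subunit body with a counterpart in bacteria, stood at -0.11, -0.42, -0.40 and -0.32 in the mutants and 0.34, 0.12, 0.19 and 0.26 in wild type. Mutant replicate 1 was the highest of the mutants and still below the lowest wild-type mouse. Mrps16 was 1.45-fold lower, by -0.54 ± 0.11 (adjusted p = 0.0163).

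Mrps7, Mrps9 and Mrps14 encode proteins of the head of the small subunit, and all 3 fell. Mrps14 fell by 0.45 ± 0.12 (adjusted p = 0.0458), the nearest to the threshold of all 21 genes. Mrps9 fell by 0.43 ± 0.11 (adjusted p = 0.0407) and Mrps7 by 0.40 ± 0.11 (adjusted p = 0.043). The mutants ran from -0.38 to -0.05 for Mrps14, from -0.32 to -0.06 for Mrps9 and from -0.29 to -0.12 for Mrps7. The wild-type mice ran from 0.05 to 0.34 for Mrps14, from 0.13 to 0.41 for Mrps9 and from 0.00 to 0.30 for Mrps7. The call of Mrps9 was lost whenever any 1 array was left out, with adjusted p from 0.0532 to 0.102. The calls of Mrps7 and Mrps14 were each kept in 1 of these 8 fits.

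Mrps27, which belongs to the pentatricopeptide repeat proteins, and Mrps35 are small subunit proteins with no bacterial counterpart. Mrps27 stood at -0.09, -0.11, -0.18 and -0.18 in the mutants and 0.24, 0.10, 0.37 and 0.34 in wild type. Its difference was -0.40 ± 0.10 (adjusted p = 0.0336), and all mutants were below 0 and all wild-type mice above. Mrps35 fell by 0.37 ± 0.10 (adjusted p = 0.044), a call that was also lost without any 1 array, with adjusted p from 0.0526 to 0.111. The call of Mrps27 was kept in 1 of these 8 fits.

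In the large subunit, Mrpl48 and Mrpl46 encode proteins of the central protuberance, the crown that faces the small subunit. Mrpl48 stood at -0.24, -0.29, -0.38 and -0.25 in the mutants and 0.32, 0.24, 0.43 and 0.53 in wild type. The mutants lay close together and apart from wild type. The difference of Mrpl48 was -0.67 ± 0.10 (adjusted p = 0.0054), or 1.59-fold lower, on a single probe. Mrpl46 stood at -0.12, -0.20, -0.15 and -0.16 in the mutants and 0.25, 0.12, 0.36 and 0.37 in wild type, a difference of -0.43 ± 0.10 (adjusted p = 0.0225). With 1 array left out, the call of Mrpl46 was kept in 4 of 8 fits.

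Mrpl1 and Mrpl11 encode the proteins of the L1 stalk and of the base of the opposite stalk, where transfer RNAs leave and translation factors bind. Mrpl1 stood at -0.37, -0.28, -0.25 and -0.41 in the mutants and 0.25, 0.17, 0.21 and 0.34 in wild type. The difference of Mrpl1 was -0.57 ± 0.09 (adjusted p = 0.00701), or 1.48-fold lower, and each of its 3 probes passed. The mean of the 2 probes of Mrpl11 had little spread, at -0.18 ± 0.04 in the mutants and 0.21 ± 0.04 in wild type (SD, n = 4 each). Mrpl11 fell by 0.39 ± 0.09 (adjusted p = 0.0212). Its probes differed within a mouse, as in wild type replicate 2 at 0.03 and 0.44. Tested alone, 1 of them passed (adjusted p = 0.0444) and the other did not (adjusted p = 0.0607). With 1 array left out, the call of Mrpl11 was kept in 4 of 8 fits. The further stalk genes Mrpl10 and Mrpl12 had differences of -0.17 and -0.23 and did not pass, with every mutant below every wild-type mouse for both genes.

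Mrpl2, Mrpl15, Mrpl18, Mrpl19 and Mrpl35 encode large subunit proteins with bacterial counterparts, Mrpl2 being near the centre that forms the peptide bond. Mrpl15 stood at -0.52, -0.32, -0.32 and -0.15 in the mutants and 0.14, 0.26, 0.25 and 0.19 in wild type. Its difference was -0.54 ± 0.11 (adjusted p = 0.0154), and mutant replicate 4 was the nearest to wild type. The other 4 genes fell by 0.37 (Mrpl19) to 0.45 (Mrpl35), with adjusted p from 0.0214 to 0.0325, and each separated the groups. With 1 array left out, the calls of Mrpl18 and Mrpl19 were each kept in 1 of 8 fits. That of Mrpl2 was kept in 2 and that of Mrpl35 in 4.

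Mrpl44, Mrpl45, Mrpl42, Mrpl49 and Mrpl51 encode large subunit proteins found only in mitochondria. Mrpl44 has the fold of an RNase III, and Mrpl45 lies at the tunnel exit and helps to hold the ribosome at the inner membrane. Mrpl44 stood at -0.21, -0.18, -0.20 and -0.33 in the mutants and 0.19, 0.23, 0.37 and 0.25 in wild type, a difference of -0.49 ± 0.09 (adjusted p = 0.0124), with all 3 probes passing. Mrpl49 fell by 0.47 ± 0.10 (adjusted p = 0.0172), also on all 3 probes. Mrpl42 had a mutant mean of -0.22 ± 0.04 and a wild-type mean of 0.20 ± 0.04 (SD, n = 4 each) and fell by 0.42 (adjusted p = 0.0166). Mrpl45 fell by 0.38 (adjusted p = 0.0222) and Mrpl51 by 0.43 (adjusted p = 0.0447), with mutant replicate 1 of Mrpl51 at -0.05 and the other mutants from -0.45 to -0.31. With 1 array left out, the call of Mrpl51 was kept in 1 of 8 fits, that of Mrpl45 in 3 and that of Mrpl49 in 5.

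**Figure D3:**
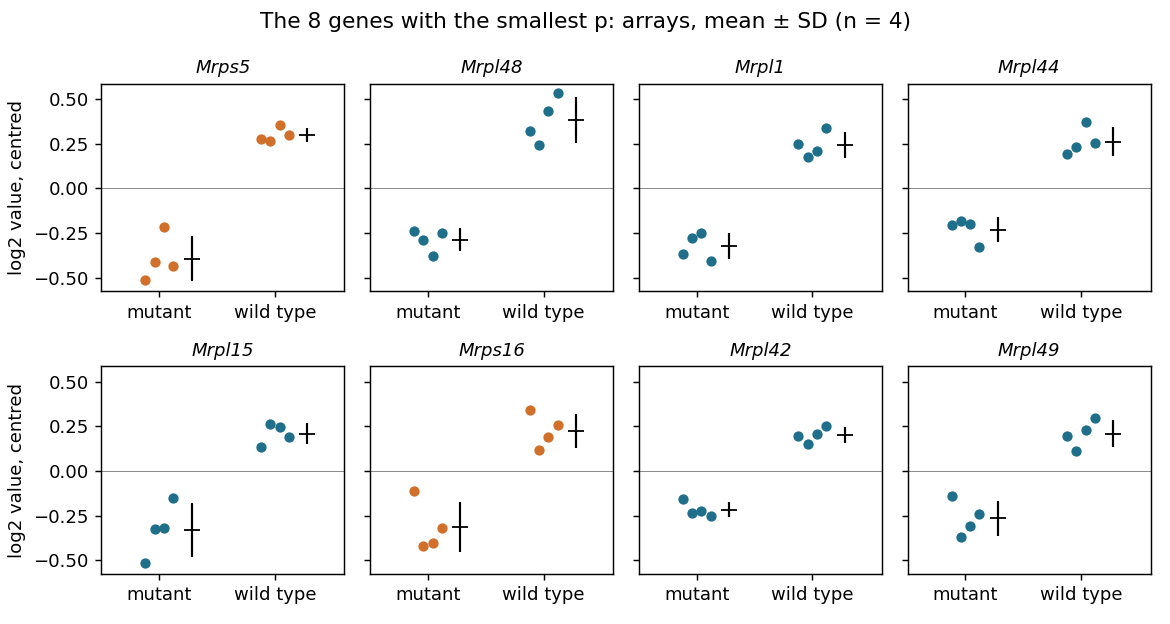
Log2 value relative to the median of each probe (vertical axis) for the 8 genes with the smallest p, with 1 point per mouse, mutant and wild type side by side, and the group mean ± SD. For each gene shown the 4 mutants lie below the 4 wild-type mice, as for Mrps5, where the mutants reach -0.22 at most and wild type begins at 0.27.

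In all 21 genes that fell, every mutant lay below every wild-type mouse. The exact two-sided permutation test over the mice gave 0.0286 for each, the smallest value that 4 against 4 mice allow. These genes were selected on the same values, so that neither the separation nor this p is further evidence. Over all rows 14.6% were separated in this direction. With the values as deposited the groups overlapped for Mrps7, Mrps14 and Mrpl51. Mrpl50 (adjusted p = 0.0525) and Mrpl14 (adjusted p = 0.0581) stood just outside the threshold, with differences of -0.35 and -0.41. Mrps11, which shares its start with Mrpl46, differed by -0.29 ± 0.10 (adjusted p = 0.0873) with groups that did not overlap. Mrpl23, Mrps12, the small subunit protein at the decoding centre, and Mrpl14 had larger differences than many of the genes that fell, and were named after their values were seen. Mrpl23 differed by -0.53 ± 0.20 (adjusted p = 0.118) and Mrps12 by -0.53 ± 0.26 (adjusted p = 0.199).

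A few members lay close to 0. The smallest differences in the large subunit were those of Mrpl36 (-0.0015 ± 0.12, 95% interval from -0.28 to 0.28), Mrpl3 (0.0027 ± 0.13, interval from -0.30 to 0.30) and Mrpl27 (0.02 ± 0.24, interval from -0.53 to 0.58). In the small subunit they were those of Mrps21 (-0.03 ± 0.12, interval from -0.31 to 0.25), Mrps23 (0.03 ± 0.10, interval from -0.19 to 0.25) and Mrps6 (0.03 ± 0.09, interval from -0.18 to 0.24). Of these 6 intervals only that of Mrpl27 reached falls as large as those of the 21 genes. With the values as deposited Mrpl36 and Mrps21 lay above 0, at 0.12 and 0.09. Under quantile normalisation Mrpl27 and Mrpl3 lay below 0, at -0.05 and -0.06.

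The probes of a gene did not always run together. Of the 78 genes 43 had 1 probe, of which 10 fell, and 35 had several, of which 11 fell. Of the 35 genes, 24 had all probes below 0, 1 had all above (Mrps23) and 10 had probes on both sides. No gene had probes that passed in opposite directions. Tested probe by probe, 40 of the 129 probes passed as lower and 0 as higher, where 9.92% and 6.36% of all probes were called.

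Some averages therefore hide probes that disagree. The 4 probes of Mrpl3, a large subunit protein near the peptidyl transferase centre, differed by -0.56 (adjusted p = 0.0119), -0.34 (adjusted p = 0.0375), -0.18 (adjusted p = 0.212) and 1.09 (adjusted p = 0.106). The first 3 were lower and the last was higher in the mutants, so that the mean of Mrpl3 was near 0. Of the 2 probes of Mrpl27, one differed by -0.60 (adjusted p = 0.0112) and the other by 0.64 (adjusted p = 0.328). A single probe passed as lower in Mrps15, Mrps17, Mrps25 and Mrpl47 as well, genes that did not pass as a mean. The probes were taken with equal weight here, and which of them measures the transcript better was not tested.

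Mrps15 and Mrpl33 each had 1 mouse far from the rest. Mrps15 stood at 0.0037, -0.19, -0.06 and -0.21 in the mutants and 2.31, 0.17, -0.03 and -0.02 in wild type. Wild type replicate 1 lay far above the rest through 1 of the 2 probes, which read 4.41 there. The difference of Mrps15, -0.72 ± 0.51, was the largest of the family and did not pass (adjusted p = 0.32). Its other probe differed by -0.44 ± 0.09 (adjusted p = 0.0147). Mrpl33 had the largest difference above 0, 0.51 ± 0.36 (adjusted p = 0.321), with 1.45 in mutant replicate 4, and its probes differed by -0.39 and 1.41. Mrpl33 was named after its values were seen.

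**Figure D4:**
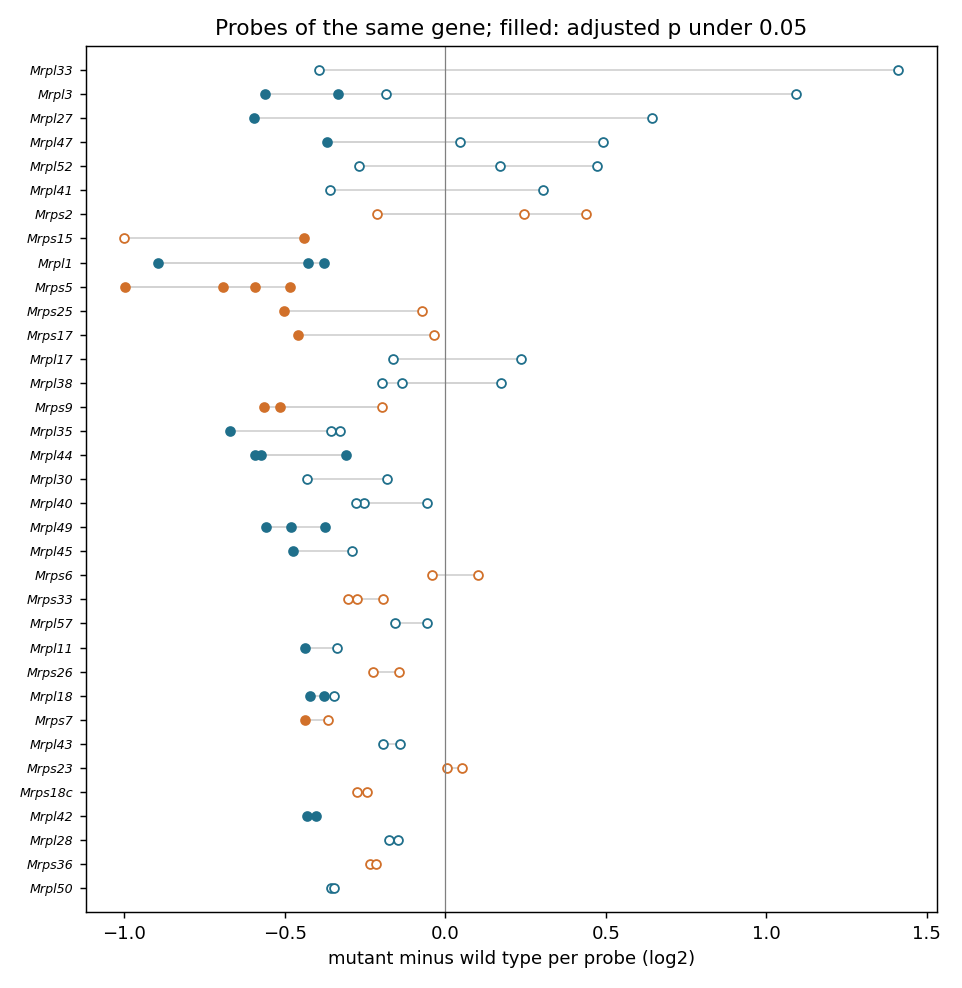
Mutant minus wild type difference on the log2 scale (horizontal axis) of each single probe of the genes with several probes, with filled points for probes that passed, all of them lower. Most genes have their probes on 1 side of 0, and Mrpl3, Mrpl27 and Mrpl33 have probes on both sides.

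The promoters of the family were compared as a description. RefSeq windows of 300 bases around the start were at hand for 69 of the 78 genes, 18 that fell and 51 that did not. Some genes had several windows, 75 in all for the 69 genes. A gene was counted once if any of its windows held the motif. The ETS core CCGGAAG, on either strand, occurred in 26 genes (37.7%), beside 12.9% of 17491 protein-coding genes. It occurred in 5 of the 18 genes that fell and in 21 of the other 51. The consensus of NRF1, a further regulator of nuclear genes for mitochondria, is a palindrome with 1 open base and occurred in 13 windows (18.8% against 7.17%) and the YY1 core AAGATGG in 13 (18.8% against 7.18%). All motifs were searched on both strands, and no match to one of these 3 is by itself a match to another.

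Motifs bound by clock factors were also counted. The E-box CACGTG, at which the activators repressed by PER proteins bind, occurred in 5 of 69 genes (7.25%), beside 8.91% of all protein-coding genes. The D-box TTATGTAA occurred in 0 of 69, beside 1.05%. The core AGGTCA, part of the elements for ROR and REV-ERB receptors, occurred in 11 (15.9% against 16.7%). These counts say only which letters lie in the windows.

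Genes of the family were often arranged head to head with a neighbour. A start on the opposite strand within 1000 bases was found for 24 of the 69 genes (34.8%), beside 8.48% of all protein-coding genes. It was found for 8 of the 18 genes that fell and 16 of the other 51. Of the 22 measured partners from outside the family 2 fell and 1 rose, and their median difference was -0.16. These counts are near what 8.93% lower and 6.52% higher over all rows would give, and the 3 partners that passed are named only to identify them. Klc4, a kinesin light chain that starts 141 bases from Mrpl2, fell by 0.90 ± 0.11 (adjusted p = 0.00254). Hira, a histone chaperone 113 bases from Mrpl40, rose by 0.46 ± 0.11 (adjusted p = 0.0248), while Mrpl40 itself differed by -0.20. Ighmbp2, a helicase 32 bases from Mrpl21, fell by 2.06 ± 0.52 (adjusted p = 0.0356), while Mrpl21 differed by -0.13. These partners were named after their values were seen.

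Other lists of the mitochondrial translation machinery also held genes that fell, where 8.93% of all rows were called lower. Of 19 aminoacyl-tRNA synthetases and amidotransferase subunits that charge transfer RNAs in mitochondria, 9 fell and 0 rose, with a median of -0.37. Vars2 (-0.82 ± 0.11, adjusted p = 0.00277), Gatb (-0.76 ± 0.10, adjusted p = 0.00278), Qrsl1 (-0.68 ± 0.09, adjusted p = 0.0032), Rars2 (-0.58 ± 0.10, adjusted p = 0.00779) and Nars2 (-0.68 ± 0.13, adjusted p = 0.0112) were named from this list. The median of the 19 genes ran from -0.25 to -0.21 in the mutants and from 0.10 to 0.20 in wild type. Without wild type replicates 2 and 3, 3 of the 19 passed, and with values as deposited 6, where 3.16% and 5.48% of all rows were called lower.

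Among 15 translation factors 5 fell and 0 rose, with a median of -0.29, beside 8.93% of all rows called lower. Gfm1, the elongation factor that moves the ribosome along, fell by 0.78 ± 0.14 (adjusted p = 0.0109), and Gfm2, which acts in ribosome recycling, by 0.41 ± 0.11 (adjusted p = 0.0458). Mtif3, an initiation factor, fell by 0.66 ± 0.12 (adjusted p = 0.0116), Mtrf1, of the release factor family, by 0.62 ± 0.10 (adjusted p = 0.00633) and Tsfm, the exchange factor of the elongation factor Tu, by 0.66 ± 0.18 (adjusted p = 0.0479). The count was 3 with values as deposited, 3 without mutant replicate 4 or any 1 wild-type mouse, and 1 without wild type replicates 2 and 3 together. Of all rows 5.48% were called lower as deposited and 3.16% without these 2 arrays.

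Among 28 genes for ribosome assembly and the modification of ribosomal RNA 12 fell and 0 rose, with a median of -0.33. Of all rows 8.93% were called lower. Eral1, a GTPase that binds the small subunit RNA, fell by 0.72 ± 0.10 (adjusted p = 0.00393). Mettl15, a methyltransferase of the same RNA, fell by 0.81 ± 0.15 (adjusted p = 0.0113) and Mrm2, a methyltransferase of the large subunit RNA, by 0.41 ± 0.10 (adjusted p = 0.0249). Mtg1, a GTPase of large subunit assembly, and Ybey, an endoribonuclease, fell by 0.43 each. The count was 2 with values as deposited, 1 without wild type replicates 2 and 3, and 2 (without wild type replicate 3) to 8 (without mutant replicate 1) when any 1 array was left out.

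Of 18 genes for transcription and upkeep of mitochondrial DNA 5 fell and 0 rose, beside 8.93% of all rows called lower. Polg2, the accessory subunit of the DNA polymerase, fell by 1.03 ± 0.12 (adjusted p = 0.00195), Lonp1, a matrix protease, by 0.74 ± 0.09 (adjusted p = 0.00217) and Top1mt, the mitochondrial topoisomerase, by 0.64 ± 0.09 (adjusted p = 0.00339). Supv3l1, an RNA helicase, fell by 0.50 ± 0.09 (adjusted p = 0.00803) and Elac2, which trims the ends of transfer RNAs, by 0.35 ± 0.08 (adjusted p = 0.0309). Of 4 measured ribosome subunits that go by other names, Gadd45gip1 passed with a mean of -0.83 ± 0.11 (adjusted p = 0.00317), yet its 2 probes passed in opposite directions, at -2.45 and 0.79. Ptcd3 (-0.26 ± 0.14), Chchd1 (-0.15 ± 0.10) and Dap3 (-0.13) did not pass.

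**Figure D5:**
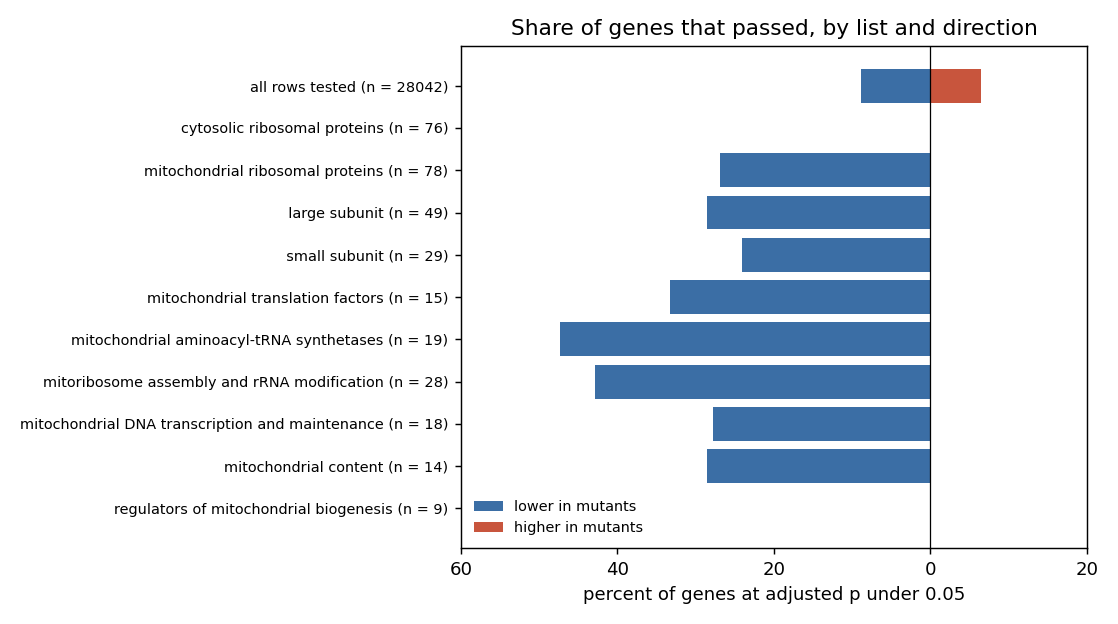
Share of genes that passed as lower and as higher in the mutants (horizontal axis, percent) for the mitochondrial ribosome proteins, the lists of mitochondrial genes and the cytosolic ribosomal proteins, with the shares over all 28042 rows as the background. The lists for mitochondrial translation lie above the 8.93% called lower over all rows, and 0 of the 76 cytosolic ribosomal proteins passed.

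Among 9 genes that regulate the making of mitochondria 0 passed limma's test, with a median of -0.0062, while 2 were lower and 1 higher at an unadjusted p under 0.05. Of all 28042 rows, 8494 lay under that p in either direction. Pprc1 differed by 0.52 ± 0.15 (adjusted p = 0.0509), Ppargc1b by -0.47 ± 0.15 (adjusted p = 0.0728) and Gabpa, a subunit of GABP, by -0.35 ± 0.13 (adjusted p = 0.115). Of the subunits encoded in mitochondrial DNA, which the ribosome translates, only ND4L was measured, and it differed by -0.05 ± 0.12 (adjusted p = 0.794).

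Some genes for proteins of the mitochondrial membranes fell as well in the main fit. Of 14 genes that stand for the amount of mitochondria 4 fell and 0 rose, with a median of -0.28, beside 8.93% of all rows called lower. Tomm40, the pore for imported proteins, fell by 0.53 ± 0.11 (adjusted p = 0.015), Phb2, a scaffold of the inner membrane, by 0.40 ± 0.09 (adjusted p = 0.0233), and the outer membrane channels Vdac1 and Vdac2 by 0.40 and 0.36. The median of the 14 genes ran from -0.20 to -0.08 in the mutants and from 0.08 to 0.19 in wild type. The count was 1 with values as deposited, where 5.48% of all rows were called lower. It was also 1 without mutant replicate 2 or 3 or wild type replicate 3 or 4. A count of 1 of 14 is near the share over all rows. It was 2 without mutant replicate 4 or wild type replicate 1 or 2, and 0 without wild type replicates 2 and 3 together. In that last fit 5 were lower at an unadjusted p under 0.05.

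The proteins of the cytosolic ribosome are set beside these as a description. Of 76 cytosolic ribosomal proteins 0 fell and 0 rose by limma's test, the median difference was 0.03, and 24 lay below 0. At an unadjusted p under 0.05, 3 were lower and 3 higher, while 8494 of 28042 rows lay under it in either direction. Their median was 0.14, -0.02, -0.10 and 0.02 in the mutants and -0.01, -0.17, 0.07 and 0.07 in wild type, and the groups overlapped. With the values as deposited 3 of the 76 rose, with a median of 0.15. Many cytosolic ribosomal proteins have near-identical copies in the genome, which the probes may not separate.

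Markers of other tissues and cell types differed between the same mice. For comparison, 8.93% of all rows were called lower and 6.52% higher. Of 8 squamous epithelium markers 5 fell, and their median ran from -1.68 to -1.11 in the mutants and from 1.13 to 3.75 in wild type. Of 8 Kupffer cell markers 7 rose, with medians from 0.34 to 0.66 in the mutants and from -0.85 to -0.27 in wild type. Of 6 skeletal muscle markers and 6 exocrine pancreas markers 0 passed limma's test, and their medians ran from -3.66 to 0.44 and from -4.32 to 1.26 in the mutants and from -0.35 to 2.39 and from -2.04 to 3.27 in wild type. At an unadjusted p under 0.05 all 6 muscle markers and 0 pancreas markers were lower, and without mutant replicate 4, 5 muscle markers passed. Of 7 hepatocyte markers 2 fell, Ttr by 0.71 ± 0.11 (adjusted p = 0.00587) and Asgr1 by 0.42 ± 0.10 (adjusted p = 0.0278), with a median of -0.04 over the list. Differences lay above 0 for 3 of the 7, up to 0.33, and 1 was higher at an unadjusted p under 0.05. Hnf4a, the third by p, did not pass and lay at 0.22 to 0.35 when any 1 array was left out. Since the values are relative to the median of each probe, none of these markers could be read as being at 0. The part of these tissues in the differences of the ribosome genes was not tested.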

How the data were processed

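The authors deposited 1 table of log2 values (the base inferred from their range) with 41252 probes on 8 one-colour Agilent arrays. Per the labels, RNA was extracted with guanidinium thiocyanate, phenol and chloroform and labelled with cyanine 3. The authors' normalization was not given in the sources used here. In the deposited table each probe was centred on its median over the 8 arrays. This keeps differences between mice and removes levels, so signal over background was not available. Precision is limited by the number of arrays. Groups came from the genotype labels, and 0 columns went unused.

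Arrays were shifted to a common 75th percentile after 78 control features were set aside. Probes were named through the platform annotation: 32664 had 1 symbol, 45 several and 8465 none. A further probe, named for a member and another gene, was not used. Probes of a gene were averaged, giving 19532 named genes and 8510 single rows. The difference was fitted with limma 3.58.1 (lmFit and eBayes, two-sided) in R 4.3.3, with Benjamini-Hochberg adjustment over 28042 rows, a threshold of 0.05 and errors given as the standard error of the fit. Promoter windows and positions came from RefSeq tables on GRCm38.p6. Seats and bacterial counterparts came from a table written from general knowledge of the ribosome. Plots were made in Python 3.11.15 with matplotlib 3.10.9. Tested on simulated data of 28042 rows for this comparison, the fit recovered 44 of 100 genes changed by 1 and 64 of 100 changed by 2 on the log2 scale, with 0 of wrong sign and 5 false calls. Only these genes were changed, a smaller share of rows than passed in the data. The changes exceeded the falls of the family, and the spreads were those of all rows. These rates therefore do not tell how often falls of the family's size are found.

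Named were all members that passed, the 3 largest and 3 smallest differences of each subunit, members with probes passing in opposite directions, Mrps30, Mrps18a and Mrps36, and the 3 genes of smallest p of each list with others that passed, up to 5. Mrpl10, Mrpl12, Mrpl14, Mrpl23, Mrpl33, Mrpl47, Mrpl50, Mrps11, Mrps12, Mrps17, Mrps25, Dap3 and the head-to-head neighbours were named after their values were seen. The members and lists were chosen with earlier results of these data known. Alternatives were the scaling (as deposited, median, quantile), single probes, the probe of largest SD, robust variance, array weights, the replicate number as a block, leaving out arrays, the control features as a covariate, and a Student test per probe at p under 0.05, the threshold given by the authors. List counts without arrays and under each scaling were added after seeing the data.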

Additional observations from a re-analysis of the deposited data

Results flagged for a closer look

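A mouse stood far from the 3 others of its group in 2 of the 62 groups tested, 1 mutant and 1 wild-type group for each of 31 named ribosome genes. Chance alone marks about 1 group in 20. In wild type, Mrps15 read 2.31 in replicate 1, while the other 3 mice lay between -0.03 and 0.17. In the mutants, Mrpl44 read -0.33 in replicate 4, while the other 3 mice lay between -0.21 and -0.18, and Mrpl44 still separated the groups.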

How the results depend on the processing

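In each of the 4 scalings 57 to 69 of the 78 genes lay below 0 and 0 were called higher. With the values as deposited, 1537 rows were lower at a median of 0.20, and 61.4% of called rows were higher against 42.2%. The family then had 6 lower genes at a median of -0.14, the large subunit 4 at -0.10 and the small subunit 2 at -0.14, and 9 of the 78 genes changed sign. Among the genes named by rule Mrpl36 (0.12), Mrps21 (0.093) and ND4L (0.073) turned positive. Under a common median the small subunit had 4 lower genes and Mrpl36 lay at 0.0077. Under quantile normalisation Mrpl27 (-0.052) and Mrpl3 (-0.055) turned negative. With the probe of largest SD the small subunit had 3 lower genes, and with array weights Mrpl3 lay at -0.036. With the control features as a covariate Mrpl27 lay at -0.069.

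Mutant and wild-type mice of the same number did not clearly deviate together (correlations 0.024, 0.081, -0.103 and 0.098). Pairs of different numbers ran from -0.103 to 0.132. So few values show no pairing by number, and they cannot exclude one. With the replicate number as a block 1019 rows were lower and 1011 higher, and 2 ribosome genes were lower, 1 in each subunit. The cause was not tested. Without wild type replicates 2 and 3, 887 rows were lower and 879 higher at a median of 0.011, 4 ribosome genes were lower (2 in each subunit) and Mrpl27 lay at -0.028. This fit has fewer mice. Leaving out 1 array gave 1542 to 1993 rows lower, 7 to 16 ribosome genes lower, 5 to 14 of the large and 2 to 3 of the small subunit. Mrpl27 then ran from -0.17 to 0.18, Mrpl3 from -0.087 to 0.083, Mrpl36 from -0.084 to 0.042, Mrps21 from -0.11 to 0.034, Mrps23 from -0.0016 to 0.059 and ND4L from -0.090 to 0.020. Mrps5 and Mrpl48 kept their call in all 17 alternative fits per gene, and Mrpl1 in 16. Whichever array was left out, Mrps5, Mrps16, Mrpl1, Mrpl15, Mrpl42, Mrpl44 and Mrpl48 kept their call. Each of the other genes that fell lost it in at least 1 of these fits.

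Tested alone, 4085 probes were lower, and 27 ribosome genes had a probe that passed. In 10 ribosome genes a probe was opposite in sign to the mean. Among the genes named by rule these probes were those of Mrpl27 (-0.60), Mrpl3 (-0.56, -0.34 and -0.18), Mrps6 (-0.042) and, outside the family, Gadd45gip1 (0.79). The Student test per probe, unadjusted, called 7745 probes lower and 4595 higher, with such a probe in 56 and 2 ribosome genes, 35 and 1 of the large and 21 and 1 of the small subunit. After Benjamini-Hochberg adjustment it called 54 probes of the family lower and 1 higher. The large minus small medians by seat stayed within the spread between mice. Signal over background could not be given from centred values, and 4 mice a group limit what could be seen of differences this small.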
